A study of Mus musculus with 4 samples.

Results

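The replication-dependent histone genes were taken as the entries of the authors' deposited table with a single symbol that begins with Hist1h, Hist2h, Hist3h or Hist4h. They numbered 68 of 26815 entries and 64 symbols, and 51 of them had been tested by the authors. The libraries were of poly(A)-selected RNA. The cells were neural stem cells, purchased, from the cortex of E14.5 embryos of CD-1 mice, and grew as a monolayer on poly-L-ornithine and laminin with EGF and bFGF. All cells carried a lentivirus and were kept in puromycin at 0.5 µg/mL. One group of 2 libraries had a scrambled shRNA (SHC002) and the other group of 2 had an shRNA against Foxp1 (pLKO.1_sh_ex15), a forkhead transcription factor. The libraries of a group came from different passages, and each group rests on 1 shRNA construct. The table sets q2, the code of one condition, against q1, the code of the other. No header or label links a code to an shRNA, so directions are those of q2 relative to q1. No value per library was used here, so no spread between libraries can be given, and each fold change, p and q below comes from the authors' deposited table. Foxp1 itself stood at -2.03 (4.09-fold lower in q2, q = 0.00162; chr6:98925342-99435345) in the authors' deposited table.

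Histones package DNA into nucleosomes, in which H2A, H2B, H3 and H4 form the core and H1 binds the linker DNA. The replication-dependent genes make the histones needed in S phase, when the genome is copied and new chromatin must be assembled. They lie in clusters, most of them lack introns, and their mRNAs normally end in a conserved stem-loop rather than a poly(A) tail. The stem-loop is bound by Slbp, and the RNA is cut just after it. Neural stem cells divide, so the genes are in use in this cell type. Selection for poly(A) tails leaves most of such RNA behind, and the form in which the histone RNA measured here passed it was not tested.

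The stem-loop is the sequence that these genes share, and 6 of them are shown because they are the called genes with a match, a gene of the small Hist3 cluster and one of the members not below 0. Capitals mark the 16 bases of the stem-loop (a stem of 6 base pairs and a loop of 4 bases), with 5 bases on each side, 5′ to 3′ on the gene's strand, from GENCODE M21 transcripts on GRCm38.
Hist1h2bk, chr13:22036295-22036320, plus strand: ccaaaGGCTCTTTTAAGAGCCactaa
Hist1h4h, chr13:23531453-23531478, plus strand: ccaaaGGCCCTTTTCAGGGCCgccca
Hist1h3e, chr13:23561898-23561923, minus strand: aaaacGGCTCTTTTAAGAGCCacctc
Hist2h3c1, chr3:96247322-96247347, plus strand: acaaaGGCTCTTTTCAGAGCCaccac
Hist3h2a, chr11:58955167-58955192, plus strand: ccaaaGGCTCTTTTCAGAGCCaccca
Hist1h4b, chr13:23757361-23757386, plus strand: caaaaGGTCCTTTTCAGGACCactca
The pattern searched was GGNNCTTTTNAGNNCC on the transcript's strand, with the stem perfectly paired. It was found in 34 of the 51 tested members and in 10 of 58725 protein-coding transcripts of other genes (0.0170%). Hist1h2bc and Hist1h1a, the other called members, held no such letters in their annotated transcripts. A stem-loop beyond the end of an annotated transcript would not have been found.

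Across the 51 tested members, 49 had a log2 fold change below 0, that is a lower value in q2, in the authors' deposited table. With bulk RNA, fewer cells with a transcript and less of it per cell cannot be told apart. The 49 are 96.1% of the tested members, beside 54.3% of all 15315 tested entries. The median over the 50 members with a finite value was -1.14 (lower in q2), beside -0.05 over all tested entries, and the range ran from -4.50 to 0.88. A log2 fold change of -1 or lower was found for 33 members (64.7%), beside 6.32% of all tested entries. At q under 0.05, 6 members (11.8%) were called lower in q2, beside 3.39% of all tested entries, and 0 were called higher by the authors' Cuffdiff test, beside 4.24%. At an unadjusted p under 0.05 the Cuffdiff test gave 18 members lower (35.3%, beside 9.74% of all tested entries) and 0 higher. The error implied by dividing a fold change by its test statistic had a median of 0.935 on the log2 scale for the members and 0.381 for all tested entries, so a given fold change was measured less precisely in the histone genes.

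**Figure D1:**
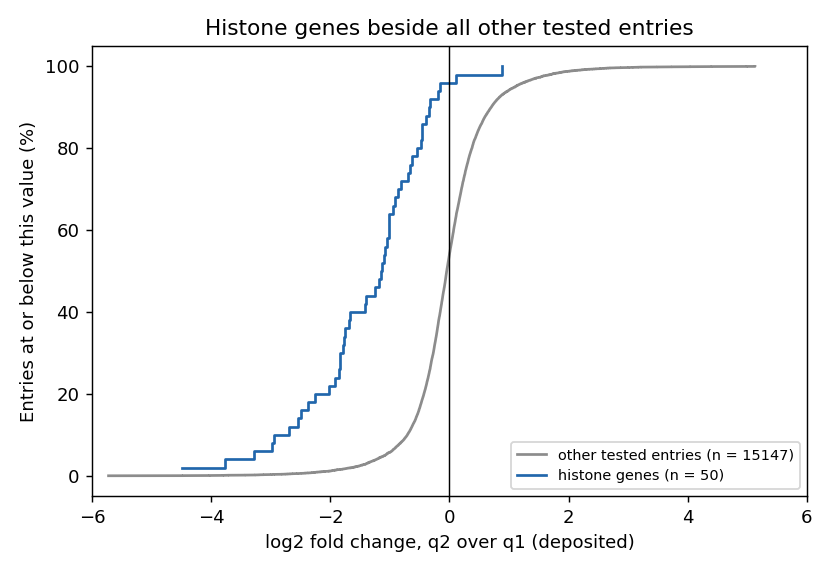
Share of entries (y axis, %) at or below each log2 fold change (x axis; q2 over q1), for the 50 histone genes with a finite value (blue) and all other tested entries with one (grey). The histone curve lies to the left, with a median of -1.14, and crosses 0 only for its last members.

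Linker histone H1, which compacts the nucleosome array, was represented by 5 tested genes, and all 5 were below 0 with a median of -0.94. Hist1h1a fell by 1.75 on the log2 scale (3.37-fold lower in q2, test statistic -2.49, q = 0.0379) in the authors' deposited table. Its locus is chr13:23763668-23764412, and 0% of the 50-base windows of its transcript also occur in another gene. Hist1h1b stood at -1.01 (q = 0.0852), Hist1h1e at -0.94, Hist1h1d at -0.91 and Hist1h1c at -0.66 by the authors' values, and these were not called. The H1 genes were closer together than the members of the core histones, from -1.75 to -0.66. The testis linker histone gene Hist1h1t was listed at 0 in both conditions.

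H2A and H2B form the dimers that flank the H3-H4 tetramer. All 11 tested H2A genes were below 0 (median -1.14, from -2.95 to -0.33) and 0 were called, while 3 had an unadjusted Cuffdiff p under 0.05. The H2A values furthest below 0 were Hist1h2ai at -2.95 and Hist1h2ae at -2.25 in the authors' deposited table, with p = 0.0594 and 0.123. Hist1h2ak, at -1.14, had q = 0.0883 in the authors' deposited table. Next to it stood Hist2h2ab at -1.79, Hist1h2ag at -1.68 (p = 0.0467), Hist1h2af at -1.18 (p = 0.0396) and Hist2h2aa2 at -1.05 in the authors' deposited table. The H2A genes nearest to 0 were Hist1h2ab at -0.81, Hist3h2a at -0.45, Hist1h2ah at -0.34 and Hist2h2ac at -0.33 by the authors' values. Of 15 tested H2B genes 14 were below 0, with a median of -1.10, and 2 were called lower. Hist1h2bk fell by 2.69 on the log2 scale (6.45-fold lower, statistic -3.63, q = 0.0063; locus chr13:22035821-22036320) in the authors' deposited table. Hist1h2bc fell by 1.01 (2.02-fold lower, statistic -2.69, q = 0.0063) in the same table of the authors. Its annotated transcript has 2 exons and its locus spans 8282 bases, whereas the median locus of the members is 490 bases. Hist1h2bj at -1.93 (q = 0.0535) and Hist2h2bb at -1.10 (q = 0.0604) lay just outside the threshold in the authors' deposited table. Hist1h2be, whose transcript is also spliced, stood at -1.84 (p = 0.0371), Hist1h2bl at -1.40, Hist1h2bf at -1.25, Hist1h2bp at -1.13 and Hist1h2bb at -1.09 (p = 0.0596) by the authors' values. Closer to 0 were Hist1h2bg at -0.54, Hist2h2be at -0.47, Hist1h2bh at -0.46 and Hist3h2ba at -0.15 in the authors' deposited table. Hist1h2bn was the highest of the tested members at 0.88 (p = 0.393) in the authors' deposited table.

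H3 and H4 form the tetramer at the centre of the nucleosome. The 11 tested H3 genes were all below 0 and had the lowest median of the histone types, -2.02 (4.06-fold lower), with 9 of 11 at -1 or lower. Whether the histone types differ was not tested. Hist1h3e fell by 2.38 (5.20-fold lower, statistic -3.30, q = 0.0063; chr13:23561896-23562365) and Hist2h3c1 fell by 1.84 (3.59-fold lower, statistic -2.98, q = 0.00162; chr3:96246685-96248244) in the authors' deposited table. Of the others, Hist1h3a stood by the authors' values at -2.98 (p = 0.0246), Hist1h3g at -2.49 (p = 0.0402) and Hist1h3h, the nearest to 0, at -0.19. Hist2h3b at -2.55, Hist1h3f at -2.02, Hist1h3d at -1.42 (p = 0.0408), Hist1h3c at -1.02 and Hist1h3i at -0.86 made up the middle of the H3 range in the authors' deposited table. Of 9 tested H4 genes 8 were below 0, with a median of -1.19 over the 8 with a finite value. Hist1h4h (chr13:23531044-23531478) was listed at 0 in q2 and called lower by the authors (p = 0.00285, q = 0.0402), and no fold change is given for it. Hist2h4, at -1.85 (statistic -2.92, q = 0.0798), was not called by the authors. Hist1h4b, at 0.12 (p = 0.913), was by the authors' values the other tested member not below 0. Between these lay Hist1h4f at -3.78, Hist4h4 at -1.77, Hist1h4c at -1.69, Hist1h4d at -0.69, Hist1h4k at -0.63 and Hist1h4i at -0.39 in the table they deposited.

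**Figure D2:**
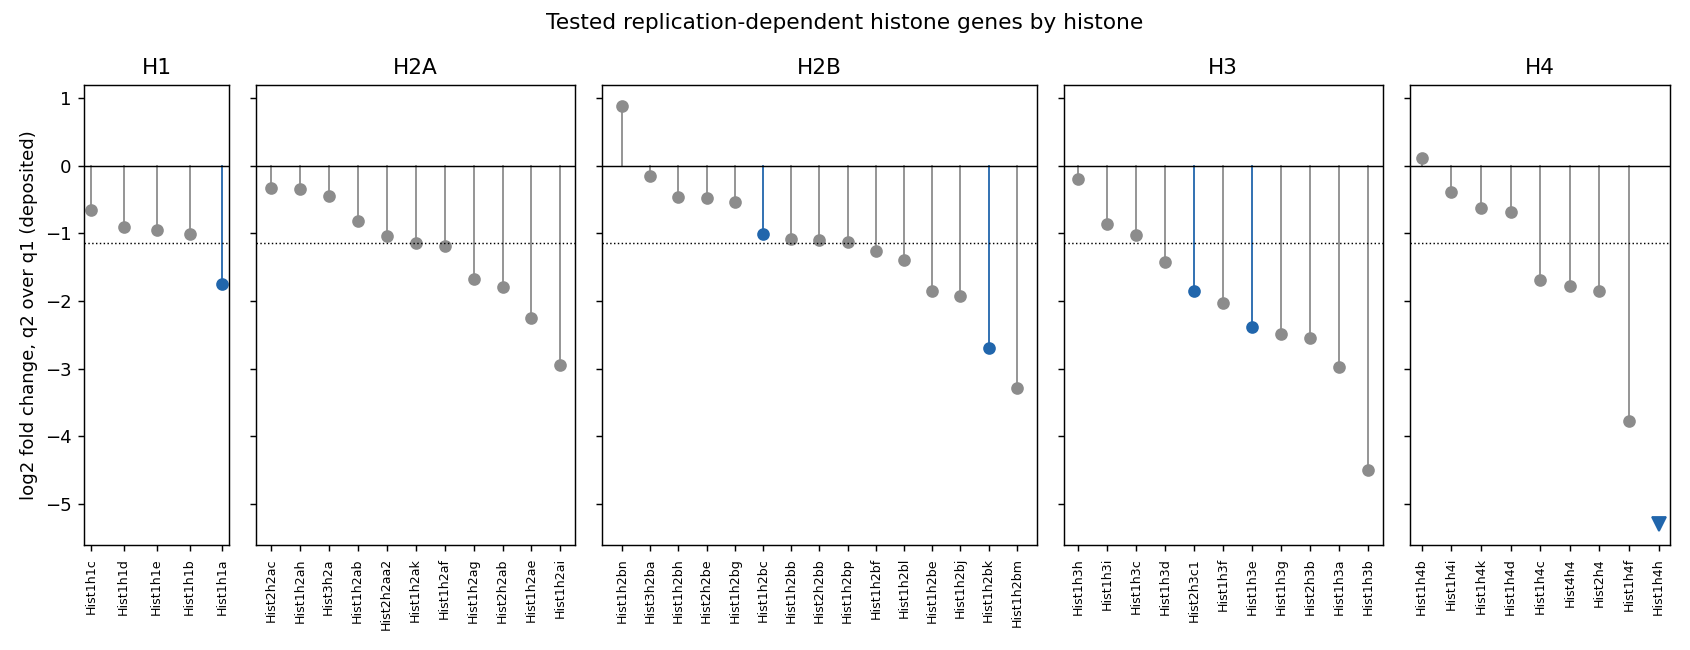
Log2 fold change (y axis; q2 over q1) for each tested member, sorted within H1, H2A, H2B, H3 and H4. Blue marks the 6 called members, the triangle Hist1h4h (listed at 0 in q2, drawn at the edge of the axis), and the dotted line the median of -1.14; Hist1h2bn and Hist1h4b are the 2 points above 0.

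The 3 members with the largest finite fold changes did not pass the test. Hist1h3b stood at -4.50, Hist1h4f at -3.78 and Hist1h2bm at -3.28 in the authors' deposited table. Their p-values, as the authors gave them, were 0.25, 0.248 and 0.249 although their statistics were -2.01, -2.34 and -1.70. Such a pair of values was uncommon: of 2312 tested entries with an absolute statistic over 1.6, 87 had a p over 0.2, and 3 of these were members, out of 19 members above that statistic. When p was instead read from the overall relation between statistic and p, 9 members were called lower, the additional ones being Hist1h2bj, Hist1h4f and Hist2h4.

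Members of all 4 clusters lay mostly below 0. The Hist1 cluster on chromosome 13 holds 54 members, 40 of them tested, of which 38 were below 0 with a median of -1.14 and 5 called lower. The 15 tested members of its first stretch had a median of -1.13 and the 25 of its second stretch -1.22. The Hist2 cluster on chromosome 3 had 8 tested members, all below 0 (median -1.45), with 1 called. The 2 tested members of the Hist3 cluster, on chromosome 11, had the cluster median nearest to 0 (-0.30), with Hist3h2a at -0.45 and Hist3h2ba at -0.15 in the authors' deposited table. Hist4h4, the single member of Hist4, stood at -1.77 by the authors' values.

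Many histone genes face a neighbour across a short shared promoter region. There were 14 head-to-head pairs less than 1000 bases apart, 13 of them an H2A gene with an H2B gene, and both genes were tested in 7 pairs. In 6 of these both genes were below 0. The exception was Hist1h2ak at -1.14 with Hist1h2bn at 0.88, whose loci are 210 bases apart in the authors' deposited table. Paired genes could still differ in size: Hist1h2ah stood at -0.34 beside Hist1h2bk at -2.69, with 177 bases between them, and Hist1h2ae at -2.25 beside Hist1h2bg at -0.54 in the authors' deposited table. Hist1h2ag and Hist1h2bj, at -1.68 and -1.93, and Hist2h2ac and Hist2h2be, at -0.33 and -0.47, had near-equal values in the authors' deposited table.

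Hist1h2bc is left out, and promoters are shown for the 5 other called members and for Hist1h2bn, the highest tested member. Each is the 150 bases before the start, 5′ to 3′ on the gene's strand, from RefSeq on GRCm38.p6, with capitals marking the TATA box TATAAA, the CCAAT box and the octamer ATTTGCAT on either strand.
Hist1h2bk, chr13:22035671-22035820, plus strand: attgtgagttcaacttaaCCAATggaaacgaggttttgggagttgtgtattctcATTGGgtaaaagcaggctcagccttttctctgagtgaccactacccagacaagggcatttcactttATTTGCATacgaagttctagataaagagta
Hist1h1a, chr13:23763518-23763667, plus strand: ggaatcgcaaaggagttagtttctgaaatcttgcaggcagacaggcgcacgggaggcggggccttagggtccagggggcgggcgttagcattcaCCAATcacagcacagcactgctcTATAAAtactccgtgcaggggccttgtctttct
Hist1h3e, chr13:23562386-23562535, minus strand: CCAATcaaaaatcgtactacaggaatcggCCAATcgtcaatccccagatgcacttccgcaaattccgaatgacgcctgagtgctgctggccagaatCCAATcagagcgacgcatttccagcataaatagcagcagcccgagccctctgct
Hist1h2bn, chr13:21753926-21754075, plus strand: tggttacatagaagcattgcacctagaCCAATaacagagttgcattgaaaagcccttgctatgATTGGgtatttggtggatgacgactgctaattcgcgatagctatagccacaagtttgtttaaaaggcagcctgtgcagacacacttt
Hist1h4h, chr13:23530894-23531043, plus strand: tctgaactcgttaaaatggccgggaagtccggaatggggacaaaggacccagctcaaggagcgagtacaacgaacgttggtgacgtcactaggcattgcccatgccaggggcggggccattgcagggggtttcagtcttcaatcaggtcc
Hist2h3c1, chr3:96246535-96246684, plus strand: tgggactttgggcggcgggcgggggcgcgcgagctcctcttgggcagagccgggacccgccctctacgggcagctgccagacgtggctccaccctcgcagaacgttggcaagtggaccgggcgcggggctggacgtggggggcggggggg
In windows from 250 bases before to 50 after the start, 34 of 59 member promoters held TATAAA (57.6%), beside 13.6% of all 32817 promoters, and 50 held CCAAT (84.7%), beside 37.4%. CCAAT was in all promoters of H1, H2A, H2B and H3 genes and in 3 of 12 H4 promoters. In the 150 bases shown, Hist1h4h and Hist2h3c1 held none of the 3 motifs, while the wider window of Hist2h3c1 held CCAAT. The octamer, the sequence that the Oct factors bind, was in 14 promoters (23.7%, beside 1.74% of all). These were 7 of 16 H2A promoters and 7 of 16 H2B promoters, with 0 of H1, H3 and H4. Hist1h2be is counted with a promoter that holds the octamer and another that does not, so promoters are not all of separate genes. Windows of head-to-head genes can overlap, as for Hist1h2bk and Hist1h2ah, and motifs were sought on either strand. The same site can therefore count for both genes, and these promoter counts are not counts of separate sites. The 3 motifs do not overlap in their letters, and a match is not evidence of binding. Among tested H2B genes, those with the octamer in that window included Hist1h2bk at -2.69 and Hist1h2bg at -0.54, and those without it Hist1h2bj at -1.93 and Hist1h2bn at 0.88 in the authors' deposited table.

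The 3′ ends bear on how these RNAs could be counted. Of 39 members whose stem-loop lay within the authors' locus, 36 loci ended 0 to 10 bases past its last base, the end that cutting after the stem-loop gives. The 30 tested ones of these had 29 below 0 and a median of -1.25. The 3 loci that ran further on were those of Hist1h1c at -0.66, Hist2h3c1 at -1.84 and Hist1h2bp at -1.13 in the authors' deposited table. GENCODE annotates longer ends for part of the members, which run past the stem-loop. For the 34 tested members with the pattern, the longest annotated transcript that holds the pattern was used. In 16 members this transcript ended within 100 bases after the pattern, with 15 below 0 and a median of -1.25. The other 18 ran on by over 100 bases, and all 18 were below 0 with a median of -1.18. The largest negative values were in the first set, where Hist1h3b stood at -4.50 by the authors' value, while no member of the second set was under -2.38. Hist1h3b was not called and had an implied error of 2.24. The median implied error was also larger in the first set, 1.04 beside 0.844. The 17 tested members with no such letters had 16 below 0 and a median of -1.10. Some annotated transcripts are shorter than the authors' locus, as for Hist1h2bn, with 381 annotated bases and a locus of 431. A stem-loop past such an annotated end would be missed, so these 17 members need not lack one. Differences between the 3 sets were not tested.

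**Figure D3:**
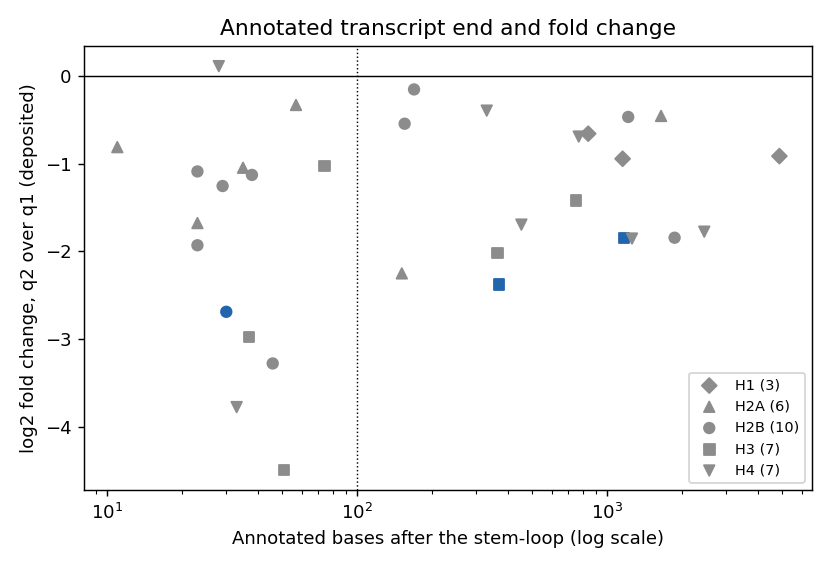
Log2 fold change (y axis; q2 over q1) against the annotated bases after the stem-loop in GENCODE M21 (x axis, log scale) for 33 tested members with a finite value, by histone; called members are blue and the dotted line stands at 100 bases. Members on both sides of the line lie below 0, and the lowest values are on the left, where the median implied error is larger (1.04 beside 0.844).

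Sequence similarity sets a limit, since reads that match several histone genes can be credited to any of them. Over 50% of the 50-base windows occurred in another gene for 22 tested members, of which 20 were below 0 (median -1.22) and 3 called. For Hist2h3c1 the share was 100%, for Hist1h2bk 74.2% and for Hist1h3e 73.4%, and for Hist1h4h, Hist1h2bc and Hist1h1a 45.8%, 30.1% and 0%. At most 20% of windows were shared for 11 tested members, and all 11 were below 0, with a median of -1.01 and 1 called, Hist1h1a. These shares are over the longest annotated transcript, which for part of the members runs well past the authors' locus. That of Hist4h4 has 2863 bases beside a locus of 439, and that of Hist1h2bh 1679 beside 522. The share within the locus was not computed and can be higher, so these 11 members need not be free of shared reads. A locus that overlapped no other entry or annotated gene was held by 35 tested members, with 34 below 0 and 5 called. For the others, reads of overlapping genes cannot be separated without knowing whether strand was used. Transcript GC content and locus length also set the members apart, with medians of 57.2% and 490 bases beside 50.7% and 18436 bases for all tested entries. GC content is that of whole annotated transcripts, which can run past the authors' locus. For Hist1h1d it is 39.8% over 7425 bases, beside a locus of 776. The GC range and the GC trend below rest on these transcripts. The 5325 other tested genes within the members' middle range of GC content, 51.1 to 62.2%, had 35.0% below 0 and a median of 0.15. Other single-symbol entries with a locus under 800 bases had 27 of 47 tested below 0 (57.4%) and a median of -0.22 over 33 finite values. Many of these loci are much shorter than those of the members. With a locus of at least 200 bases, 16 of 25 tested were below 0 (64%), with a median of -0.16 over 24 finite values. Most such entries, 131 of 156, were not tested by the authors. The part of locus length in the histone values was not tested. With the trend over GC content removed, 12 members were called lower (9 from the re-read p alone), Hist1h2bc lost its call (-0.84, q = 0.0579), and the median was -1.39.

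The remaining 17 members were not tested by the authors. The table listed 8 at 0 in both conditions, 5 at 0 in q2 only and 2 at 0 in q1 only. Those at 0 in both were Hist1h1t, Hist1h4j, Hist1h4n, both entries of Hist1h2br and 1 entry each of Hist1h2ao, Hist2h2aa2 and Hist2h3c1. Those at 0 in q2 only were Hist1h2ac, Hist1h2an, Hist1h4a, Hist1h4m and the pseudogene Hist3h2bb-ps, and those at 0 in q1 only were Hist1h2aa and 1 of the 2 entries of Hist1h2ao. Hist1h2ad, at -1.60, and Hist1h2ba, at 0.03, were the others in the authors' deposited table. Of the 4 symbols with 2 entries, Hist1h2br, Hist1h2ao, Hist2h3c1 and Hist2h2aa2, at most 1 entry each had been tested.

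Histone genes make up only one part of the S phase programme, and 5 lists of related genes were compared with them. The genes that control histone transcription and 3′ end formation had 17 tested members, split 9 below and 8 above 0 with a median of 0.00, and the direction of the median changed with centring. E2f1, the transcription factor of S phase entry, rose by 0.79 (q = 0.0311) and was the single call of 17 in that list in the authors' deposited table, where 4.24% of all tested entries were called higher. Slbp, which binds the stem-loop, stood at 0.23 (p = 0.31), Cpsf2, a subunit of the cleavage complex, at -0.32, and Npat, the coactivator of histone genes, at -0.21 in the authors' deposited table. The histone chaperones and assembly factors had 18 tested members, 14 of them above 0, with a median of 0.11. Beside the 4.24% of all tested entries called higher, 1 of the 18 was called higher. That was Chaf1a, a subunit of the chromatin assembly factor, which rose by 0.68 (q = 0.0367) in the authors' deposited table, while Asf1b stood at 0.56 and Asf1a at -0.47, not called.

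The histone variants that are made outside S phase as well had 11 tested members, 6 below and 5 above 0, with a median of -0.02 that changed sign with centring, and 0 were called. At an unadjusted p under 0.05 the authors' Cuffdiff test gave 2 of them lower, H2afv at -0.58 (p = 0.0109) and H3f3b at -0.49 (p = 0.0264), and 1 higher, H1fx at 0.57 (p = 0.016). Over all tested entries, 9.74% were lower at that threshold and 1449 of 15315 were higher. The S phase genes had 25 tested members, 17 above and 8 below 0, with a median of 0.34, and 4 rose while 0 fell by the authors' Cuffdiff test, beside 4.24% and 3.39% of all tested entries, with 0 lower at an unadjusted p under 0.05. These were Cdt1 at 0.85 (q = 0.0118), Mcm3 at 0.76 (q = 0.0126), Mcm2 at 0.68 (q = 0.0332), all 3 of replication licensing, and Uhrf1 at 0.67 (q = 0.0361), a factor of methylation maintenance, in the authors' deposited table. When p was re-read from the statistic with no trend removed, 3 of the 4 were called, E2f1 was called and Chaf1a was not (q = 0.0553). With the GC trend removed as well, the single call left was Mcm3 at 0.75; Cdt1 was at 0.59, E2f1 at 0.52 and Mcm2 at 0.45, whereas Chaf1a at 0.68 and Uhrf1 at 0.67 had nearly the deposited values. The G2 and M phase genes had 15 tested members, 9 below and 6 above 0, with a median of -0.15 and 0 called, while Kif11, a mitotic kinesin, stood by the authors' values at -0.49 (p = 0.0238). No companion list had a median as low as the histone genes, and the difference between lists was not tested.

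One more set, chosen after the members' values were seen, was of RNAs that like the stem-loop mRNAs have no poly(A) tail. Each had an entry under its own symbol with a locus under 1000 bases. Overlap with other genes was not checked for this set, so reads of an overlapping gene could enter its values. The set held 18 entries, 8 of them tested. All 8 were below 0 (7 when the values were centred on the median of all tested entries), beside 54.3% of all tested entries. Their median was -1.12 over the 7 with a finite value. Snord104, a small nucleolar RNA, fell by 1.63 (q = 0.0351) in the authors' deposited table. By the authors' values the RNase P RNA Rpph1 stood at -0.98 (p = 0.0684), the RNase MRP RNA Rmrp at -1.12 (p = 0.07) and the Cajal body RNA Scarna2 at -2.06 (p = 0.0646), and Rnu12, a spliceosomal RNA, was listed at 0 in q2. The others were Snora78 at -1.45 (p = 0.363), Snora30 at -0.77 (p = 0.504) and Scarna17 at -0.04 (p = 0.697) in the authors' deposited table. Snora78 has the same locus as Snhg9, which stood at 0.71 by the authors' values. The efficiency of poly(A) selection in each library was not measured here, and its part in the histone values was not tested.

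**Figure D4:**
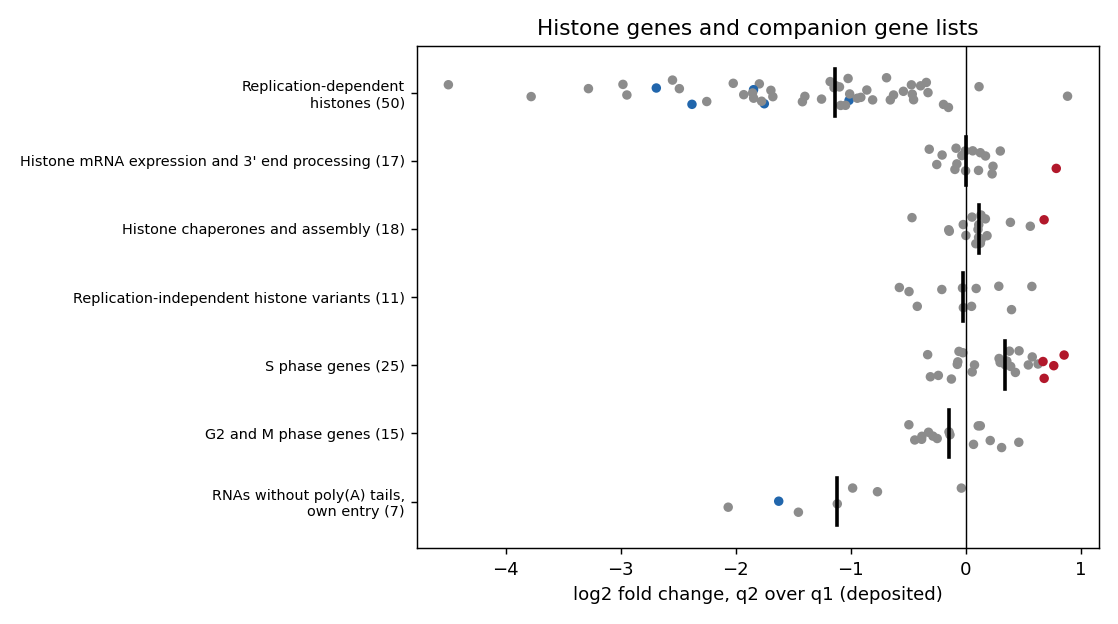
Log2 fold change (x axis; q2 over q1) for the histone genes, the 5 companion lists and the RNAs without poly(A) tails, with the number of finite values in brackets; black bars are medians, blue points called lower and red points called higher. The histone genes and the RNAs without poly(A) tails have medians of -1.14 and -1.12, and the companion lists lie near 0.

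Neural stem cell markers were tested for 7 of 8 genes in the authors' deposited table, with Nes at 0.75 called higher, Fabp7 at -1.13 called lower and Sox2 at 0.04. Levels were not used here, so fold changes of markers cannot check the labelled cell type. Astrocyte markers were tested for 4 of 4, all below 0, with a median of -1.46 and 3 called lower, Aqp4 at -2.70, Gfap at -2.06 and Aldh1l1 at -0.87 in the authors' deposited table. Oligodendrocyte lineage markers were tested for 3 of 4, with Pdgfra at -2.83 (q = 0.00162) called lower and Mbp at 1.75 (q = 0.00719) called higher by the authors. Of the neuron markers 3 of 5 were tested, 2 of them below 0, with a median of -0.13. Syt1 at 1.48 (q = 0.00162) was called higher by the authors, while Tubb3 at -0.65 and Map2 at -0.13 were not called. By contrast the microglial, endothelial and fibroblast lists had 1 tested gene each, with none called by the authors' Cuffdiff test and 0 at an unadjusted p under 0.05. What these markers contribute to the histone values was not tested.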

How the data were processed

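Cortical neural stem cells with 2 shRNAs, 2 libraries each, were compared; groups come from the sample titles. The authors deposited 1 table, in which log2 fold changes are those of q2 over q1 and the test statistic is a score, per the file headers, and the authors' p-values and q-values stand beside them. Per the submitters' processing notes, the tools were TopHat2 2.0.9, Cuffdiff (version not given) and Cufflinks 2.2.1, on mm10 (GRCm38). Annotation, filters and strand use are not given in the sources used. The 2 columns of values per condition match no group and were not used, so levels and read depth, with the precision it gives, are unknown here. Coordinates are those of the authors' loci, counted from 1.

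A call is the authors' q under 0.05 over all tested entries. Named genes are every tested, called or 0-listed member, Foxp1 and, from each companion list, the called genes and up to 2 others with the largest statistic; further companion genes and the markers printed were chosen after their values were seen. Members and lists were chosen with earlier results of these data known. Transcripts and stem-loops come from GENCODE M21, promoters from RefSeq (58 entries matched to 1 gene). Trends over GC content and length were removed in 50 bins and p re-read from the statistic, a procedure tested on simulated data. The simulated p followed directly from the statistic, large errors were capped, and recovery was scored only for entries with low error. Entries whose p departs from their statistic, and members with large errors, were therefore not covered by it. The tools here were scikit-learn 1.9.0, scipy 1.17.1, numpy 2.4.6, matplotlib 3.10.9 and pandas 2.3.3 in Python 3.11.15.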

Additional observations from a re-analysis of the deposited data

How the results depend on the processing

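The number of members called lower in q2 was 6 as deposited, 11 at q under 0.1, 2 with p from a normal distribution, 12 with the GC trend removed, and 1 among the 11 members with few shared windows, where fewer members were tested; it was 4 at q under 0.01, 7 with q over single-symbol entries, 9 with the length trend removed, 5 among members with a locus of their own, and 9 when p was re-read from the statistic. The cause of the rise with GC content was not tested apart from the re-reading, which alone gave 9. No member was called higher by the Cuffdiff test in any of these. The count below 0 was 49 of 51 as deposited and, over the alternatives, 50 with the GC trend removed, 34 of 35 with a locus of their own and 11 of 11 with few shared windows. Shared windows were counted over the longest annotated transcript, not over the authors' locus. The median of -1.14 ran from -1.39 with the GC trend removed to -1.01 with few shared windows. Hist1h4b, at 0.12 as deposited, was at -0.18 with the GC trend removed. The re-reading (for members and related lists), the few shared windows and the omission of the called members (43 of 45 below 0) were chosen after seeing the data. No paired analysis was possible because values per library were not used here, and leaving out each library in turn was likewise not run. What depth limits is unknown.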
